A study of Solanum lycopersicum with 18 samples.

Results

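A set of 172 tomato genes, of 35802 listed, had higher RNA levels at 45 DAP than at 35 DAP both in wild-type fruits and in fruits of the ripening mutant rin, and little or no such difference in TF18, a line with suppressed FUL1 and FUL2. The set was chosen from the measured levels themselves. RPKM (reads per kilobase of gene and per library total) was averaged within each group, and for each genotype R was the 45 DAP mean plus 1 divided by the 35 DAP mean plus 1. A gene entered the set with a wild-type mean of at least 10 RPKM at 45 DAP, R of at least 3 in the wild type and in rin, and R of at most 1.5 in TF18. The ratios of these 3 genotypes are therefore descriptions of the set and are not results.

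RNA was sequenced from whole sliced fruits of Solanum lycopersicum, with 3 libraries in each of 6 groups. The wild type is the cultivar Ailsa Craig, labelled AC, the mutant is rin (strain LA3754, in the Ailsa Craig background), and TF18 is a single transgenic line of Ailsa Craig, for which the labels do not say what drives the transgene. Each genotype was sampled at 35 DAP, labelled Green, and at 45 DAP, labelled Pink, from plants of the same glasshouse conditions, and no group received a further treatment. The group names AC-Green, AC-Pink, rin-Green, rin-Pink, TF18-Green and TF18-Pink are used below, and Green and Pink are labels of age, not a scored colour. Whether the triplicate libraries of a group stem from separate plants is not said in the labels. The p-values thus cover the spread between libraries alone, some of which may be technical.

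Tomato is a climacteric fruit, in which ripening comes with a burst of ethylene and with new transcription of genes for colour, softening and flavour. RIN and the FUL proteins belong to the MADS-box family of transcription factors, act in this programme and can bind DNA together in complexes. Fruits of the rin mutant reach full size without ripening normally. The deposited table gives each gene by its Solyc identifier only. No table at hand gives names for these identifiers, so no gene function is stated, and neither the levels of RIN, FUL1 and FUL2 in each library nor markers of fruit tissue were checked.

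The read totals of the libraries, solved from the RPKM values, ran from 5740900 to 17334324. Those of AC-Pink were among the lowest, with 10452311, 5740900 and 7888620 reads. The reads summed over genes came close to each total, so the totals are of reads assigned to genes. How many reads were sequenced is not known here. The counts of replicate libraries were further apart than sampling noise allows (chi-square of 23.3 to 160 per gene). AC-Pink also stood apart in composition. On the log2(RPKM + 1) scale the median of all 20658 genes tested was 0.58 lower in AC-Pink than in AC-Green and 0.49 higher in rin-Pink than in AC-Pink. A scaling by trimmed means of log ratios (TMM-type) brought these medians to -0.16 and 0.08. Counts of calls against AC-Pink are therefore given on both scales. In whole-fruit RNA, fewer cells of a type and less RNA per cell cannot be told apart.

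Together the 172 genes were a small share of the RNA at 35 DAP and, by the rule that chose them, a larger one at 45 DAP in AC and rin. Their summed level was 6362 RPKM ± 1048 (SD, n = 3) in AC-Green and 68929 ± 5515 in AC-Pink, or 0.590% and 5.47% of all RPKM. In rin the sum was 6949 ± 1661 at 35 DAP and 37195 ± 6843 at 45 DAP, or 0.614% and 3.15% of all RPKM. In TF18 the sum was 8905 ± 1708 and 8103 ± 2351. The set in rin-Pink thus summed to less than in any AC-Pink library, with 29789, 38511 and 43284 RPKM against 72167, 62561 and 72059. The sums of rin-Green and AC-Green overlapped, with 8755, 5487 and 6606 RPKM against 5967, 5570 and 7550. These libraries also chose the genes, so the sums are given without a test. A few genes carried much of each sum. The most abundant one held 10.9% to 14.3% of it in AC-Pink and 35.1% in rin-Pink replicate 3, and without the most abundant gene of each library the means of AC-Pink and rin-Pink were 59999 and 27950 RPKM. With TMM-type scaling the means of AC-Pink and rin-Pink were 102556 and 36290 RPKM.

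**Figure D1:**
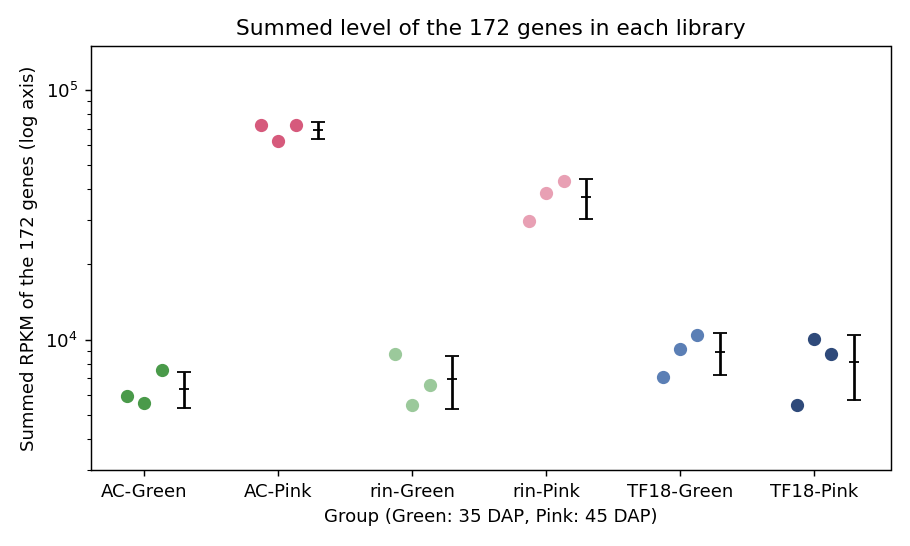
Summed RPKM of the 172 genes (log axis) in each of the 18 libraries, by group; points are libraries in replicate order and bars give the mean ± SD of 3 libraries. The 3 AC-Pink libraries sit at 62561 to 72167 RPKM, the 3 rin-Pink libraries at 29789 to 43284, and the other groups at or below 10446.

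The genes differed widely in how far they rose. R(AC) ran from 3.02 to 594 with a median of 7.58, and R(rin) from 3.001 to 354 with a median of 4.77. Ratios of at least 10 were found for 70 genes in AC and 30 in rin, and ratios of at least 100 for 11 and 2. R(TF18) ran from 0.265 to 1.49 with a median of 1.01, and the middle 50% of genes lay between 0.885 and 1.21. The median level of a gene was 8.65 RPKM in AC-Green, 97.2 in AC-Pink, 7.61 in rin-Green, 54.2 in rin-Pink, 8.60 in TF18-Green and 8.48 in TF18-Pink. A group of 21 genes had means under 1 RPKM in AC-Green, rin-Green, TF18-Green and TF18-Pink alike.

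All 172 genes passed the filter for testing, and calls below are from limma on log2(RPKM + 1) over all 20658 genes. A call needed an adjusted p below 0.05 together with a log2 fold change of 1 or more in size. From 35 to 45 DAP, 164 were called higher in AC, where 7.54% of all genes were, and 163 in rin, where 7.49% were. None of the 172 was called lower (0 in AC and 0 in rin), where 34.2% and 8.84% of all genes were. With TMM-type scaling 167 were higher and 0 lower in AC-Pink than in AC-Green, where 17.5% and 24.3% of all genes were. These counts follow from the choice of the set and nothing is read from them. All 3 libraries of 45 DAP lay above all 3 of 35 DAP for 165 genes in AC and 163 in rin, against 15.7% and 25.1% of all genes. Of the 8 genes not called in AC and the 9 not called in rin, all 8 and 8 of the 9 left the set when 1 library was left out.

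Membership depended on single libraries for many genes. Only 73 genes, or 42.4%, stayed in the set whichever of the 18 libraries was left out. Leaving out TF18-Green replicate 3 removed 29 of the 172, and leaving out rin-Pink replicate 2 or replicate 3 removed 24 each. The genes nearest each limit show how fine the borders are. Solyc03g095880 was just inside the level limit at 10.7 RPKM in AC-Pink, and Solyc10g006960 just outside it at 9.495. For R(AC) the neighbours were Solyc06g076140 at 3.02 and Solyc03g116340 at 2.96, and for R(rin) Solyc11g008960 at 3.001 and Solyc01g080210 at 2.995. For R(TF18) they were Solyc04g018110 at 1.49 inside and Solyc01g112120 at 1.505 outside.

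Of 769 genes with R(AC) of at least 3 and at least 10 RPKM in AC-Pink, 305 also had R(rin) of at least 3, and 172 of these, 56.4%, had R(TF18) of at most 1.5. Among the 464 with R(rin) under 3, 367 or 79.1% had R(TF18) of at most 1.5. These shares come from the limits that define the groups and were not tested against each other.

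**Figure D2:**
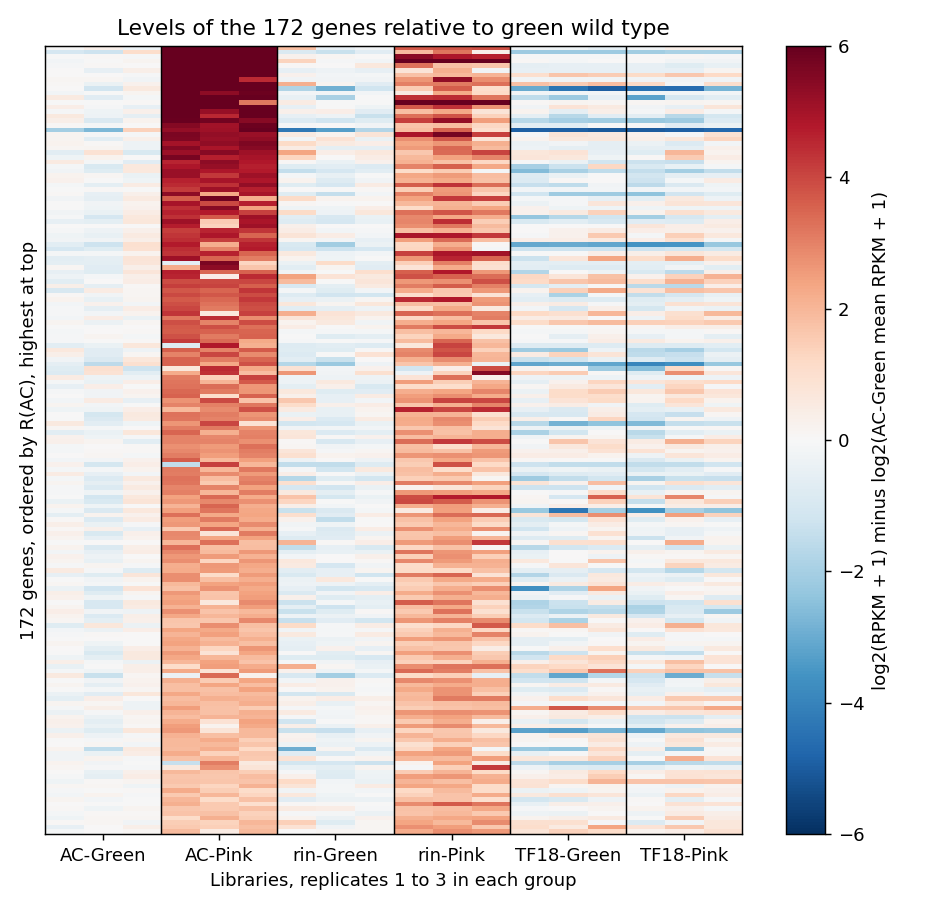
Level of each of the 172 genes (rows, ordered by R(AC)) in each of the 18 libraries (columns), as log2(RPKM + 1) minus log2 of the AC-Green mean plus 1; colours are clipped at -6 and 6. The AC-Pink and rin-Pink columns are red in nearly every row by the choice of genes, with paler red in rin-Pink at the top, and some rows are blue in all 6 TF18 columns.

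The most abundant gene of the set in AC-Pink was Solyc03g031860. It stood at 119, 104 and 153 RPKM in AC-Green and at 9676, 4783 and 10276 in AC-Pink. In rin it stood at 156, 166 and 78.6 RPKM at 35 DAP and at 444, 605 and 215 at 45 DAP. In TF18 the values were 144, 85.7 and 162 RPKM at 35 DAP and 114, 171 and 114 at 45 DAP. The 3 rin-Pink libraries lay above the 3 rin-Green ones and far below all AC-Pink libraries, and the TF18 groups overlapped. The mean in rin-Pink was 5.11% of that in AC-Pink.

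Solyc12g013700, the next by level, differed among genotypes at both ages. In AC it measured 30.8, 12.8 and 46.0 RPKM at 35 DAP and 2097, 3118 and 4848 at 45 DAP. In rin it measured 7.80, 3.25 and 12.6 RPKM at 35 DAP and 88.0, 381 and 63.7 at 45 DAP. In TF18 it measured 2.85, 0.476 and 0.0 RPKM at 35 DAP and 0.394, 0.289 and 3.52 at 45 DAP. At 35 DAP the 3 genotypes did not overlap, with AC highest and TF18 lowest, and the same order held at 45 DAP.

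Solyc06g076140 had the highest mean level of the set in each of the 6 groups but AC-Pink. In AC it measured 992, 1082 and 1156 RPKM at 35 DAP and 4066, 1528 and 4156 at 45 DAP. In rin it measured 1095, 1178 and 1181 RPKM at 35 DAP and 5084, 7445 and 6455 at 45 DAP. In TF18 it measured 1859, 2818 and 2279 RPKM at 35 DAP and 1261, 1410 and 2028 at 45 DAP. All rin-Pink libraries were above all AC-Pink ones, the AC-Pink mean was lowered by replicate 2, and all TF18-Green libraries were above all AC-Green ones.

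Solyc06g076520 varied widely within every group. In AC it measured 187, 607 and 214 RPKM at 35 DAP and 1588, 6838 and 1228 at 45 DAP. In rin it measured 2132, 289 and 648 RPKM at 35 DAP and 270, 847 and 15207 at 45 DAP. In TF18 it measured 831, 962 and 354 RPKM at 35 DAP and 201, 2340 and 549 at 45 DAP. Its place in the set rests on rin-Pink replicate 3, since the other two rin-Pink libraries lay within or below the range of rin-Green.

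**Figure D3:**
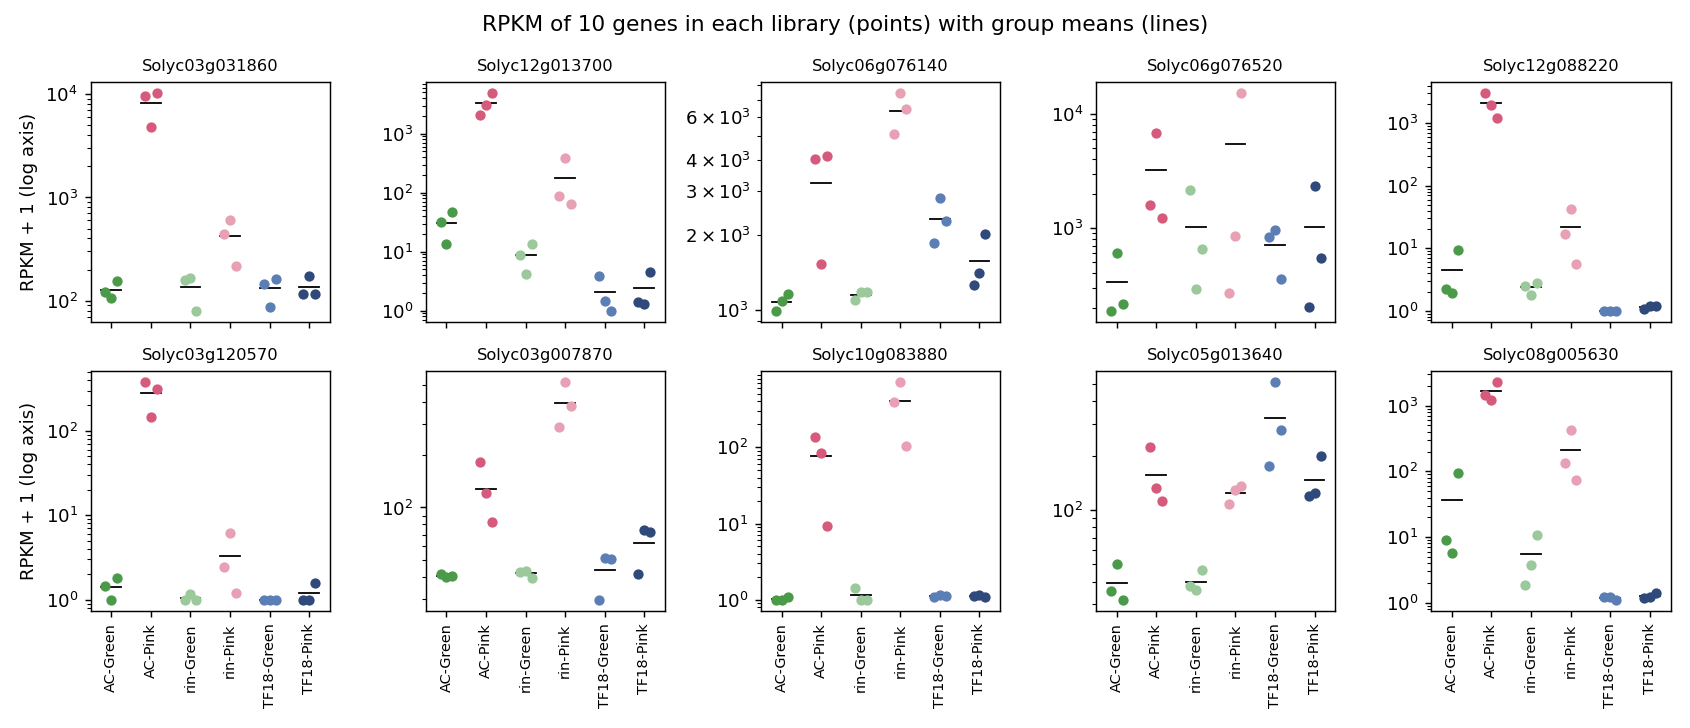
RPKM + 1 (log axes, each panel with its own range) of 10 of the 172 genes in each library (points, replicates 1 to 3 from left to right) with group means (lines). Solyc03g031860, Solyc12g013700, Solyc12g088220, Solyc03g120570 and Solyc08g005630 are lower in rin-Pink than in AC-Pink. Solyc10g083880, Solyc03g007870, Solyc06g076140 and Solyc06g076520 are higher in rin-Pink by mean. Solyc06g076520 spreads from 270 to 15207 RPKM within rin-Pink.

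At 45 DAP the set was on the whole lower in rin than in AC, with wide differences among its genes. The rule asked the same ratio of both genotypes and did not set their order, but its floor of 10 RPKM applied to AC-Pink alone and it used these same libraries, so the counts that follow describe the set. The rin-Pink mean was a median of 66.6% of the AC-Pink mean over the 172 genes, with a range of 0.826% to 536%. It was at or above the AC-Pink mean for 50 genes and under 10% of it for 12. With TMM-type scaling the median was 42.1%, and the counts were 20 and 24. In all 172 genes the rin-Pink mean stayed above the AC-Green mean. The ratio of at least 3 asked of rin favours this, so nothing is read from it. By limma, 57 genes (33.1%) were lower and 4 higher in rin-Pink than in AC-Pink, where 3.42% and 25.9% of all genes were. The median log2 fold change was -0.55 over the set and 0.49 over all genes. With TMM-type scaling 84 genes were lower and 2 higher, where 8.93% and 14.1% of all genes were. Without overlap between the 3 libraries of each group, 63 genes were higher in AC-Pink and 11 in rin-Pink, against 7.45% and 41.8% of all genes.

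The rises themselves were compared by the difference of the rin change and the AC change in the same model. It was negative, a smaller rise in rin, for 41 genes (23.8%) and positive for 2, where 2.97% and 23.2% of all genes were called. The median difference was -0.45 over the set and 0.57 over all genes. The 41 genes had a median R of 29.7 in AC and 3.92 in rin and a median AC-Pink level of 340 RPKM. A steep rise in AC follows here from the rule and the call together, since R(rin) had to be at least 3. Of these, 37 were also called lower in rin-Pink than in AC-Pink. The 129 genes with no call had a median R of 5.94 in AC and 5.17 in rin. Their standard errors had a median of 0.66 on the log2 scale, so a 95% interval reached about 1.29 to either side and equal rises were not shown. R(rin) was above R(AC) for 48 genes on the deposited scale and for 17 with TMM-type scaling. With the latter, 56 genes were called with a smaller rise in rin and 0 with a larger one, where 9.05% and 10.7% of all genes were.

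**Figure D4:**
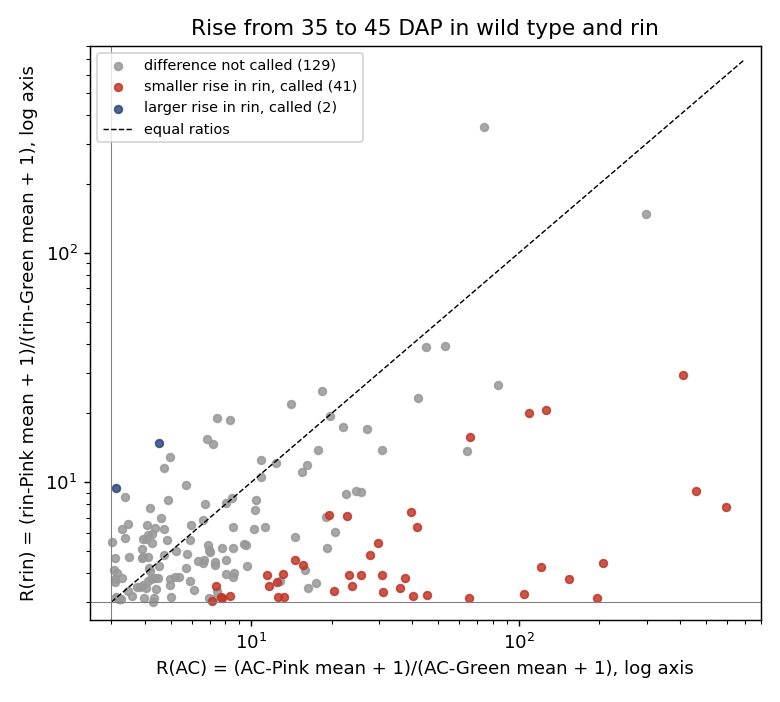
R(rin) against R(AC) for the 172 genes (log axes), where R is the 45 DAP mean plus 1 over the 35 DAP mean plus 1; thin lines mark the limit of 3 and the dashed line equal ratios. The 41 genes with a called smaller rise in rin lie to the lower right with R(AC) from 7.15 to 594, and the 2 with a called larger rise lie at the left above the dashed line with R(AC) of 3.13 and 4.52.

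The genes here and below were named by their values in the same libraries that chose the set. Their p-values are therefore descriptions and not independent tests. The largest differences in favour of AC were those of Solyc12g088220 and Solyc03g120570. Solyc12g088220 stood at 1.26, 0.937 and 8.33 RPKM in AC-Green and at 3022, 1971 and 1214 in AC-Pink. In rin-Green it stood at 1.48, 0.761 and 1.82 RPKM and in rin-Pink at 16.1, 40.9 and 4.53. The groups of 45 DAP were far apart, and the rin-Pink mean was 0.991% of the AC-Pink mean. In limma's fit the difference of the changes was -6.36 ± 0.89 (SE) with an adjusted p of 0.00017, and rin-Pink was lower than AC-Pink by a log2 fold change of -6.94 with an adjusted p of 9.6e-07. Solyc03g120570 stood at 0.437, 0.0 and 0.824 RPKM in AC-Green and at 377, 147 and 309 in AC-Pink. In rin-Green it stood at 0.0, 0.157 and 0.0 RPKM and in rin-Pink at 1.43, 5.23 and 0.214. Its rin rise was small and rests on 34 reads in rin-Pink and 1 in rin-Green, against 2859 reads in AC-Pink. By limma this rise was called at a log2 fold change of 1.33. The rule required a rise in these same rin libraries, so the call is a description and no test is read from it. The call of the rise was lost with a pseudocount of 5 RPKM (0.47), with no filter and with the replicate block. It was also lost without each rin-Green library in turn, without rin-Pink replicate 1 and without rin-Pink replicate 2 (0.71). The difference of the changes was -6.22 ± 0.66 (SE, limma adjusted p 1.7e-05), and rin-Pink was lower than AC-Pink by -6.61 (adjusted p 9.1e-08). Both differences were called under each alternative.

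A smaller rise in rin was also called for Solyc03g031860, with a difference of -4.36 ± 0.57 (SE, limma adjusted p 9.6e-05), and for Solyc12g013700, with -2.83 ± 1.02 (adjusted p 0.046). The second call was lost when any of 8 of the 12 libraries was left out (AC-Green 1 and 2, AC-Pink 2 and 3, rin-Green 1 and 3, rin-Pink 1 and 3), with adjusted p of 0.066 to 0.11, and also with no filter (adjusted p 0.068), with quantile normalization (adjusted p 0.13) and with the replicate block (adjusted p 0.06). The lower level of Solyc12g013700 in rin-Pink than in AC-Pink, at a log2 fold change of -4.61 ± 0.72 (adjusted p 0.00015), kept its call under each alternative.

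The 2 genes with a called larger rise in rin were Solyc03g007870 and Solyc02g088130. Solyc03g007870 measured 40.6, 39.4 and 39.5 RPKM in AC-Green and 179.5, 119 and 81.6 in AC-Pink. In rin it measured 42.15, 42.4 and 38.6 RPKM at 35 DAP and 287, 517 and 379 at 45 DAP. The 6 green libraries lay within 38.6 to 42.4 RPKM, and every rin-Pink library was above every AC-Pink one. The difference of the changes was 1.62 ± 0.42 (SE, limma adjusted p 0.01), and rin-Pink was higher than AC-Pink by 1.66 ± 0.30 (adjusted p 0.00046). With TMM-type scaling the difference of the changes was 0.94 (adjusted p 0.11) and was not called. Solyc02g088130 measured 9.62, 5.55 and 10.9 RPKM in AC-Green and 29.98, 29.0 and 69.3 in AC-Pink. In rin it measured 2.69, 4.97 and 3.57 RPKM at 35 DAP and 60.1, 78.2 and 69.05 at 45 DAP. The groups of 45 DAP overlapped, and every rin-Green library was below every AC-Green one. Its difference of 1.803 ± 0.64 (SE, limma adjusted p 0.043) was lost with TMM-type scaling (1.14, adjusted p 0.18), with quantile normalization (1.43, adjusted p 0.13), with no filter (adjusted p 0.063) and when any of 9 of the 12 libraries was left out (AC-Green 1 and 3, AC-Pink 1 and 2, rin-Green 1 and 3, each rin-Pink library), with adjusted p of 0.06 to 0.096.

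The other genes higher in rin-Pink than in AC-Pink were Solyc10g083880, Solyc06g076140 and Solyc07g065420, the last named after its values were seen. Solyc10g083880 was almost silent at 35 DAP, with 1 read in AC-Green and 4 in rin-Green. At 45 DAP it measured 135, 82.8 and 8.32 RPKM in AC and 391.5, 717 and 104 in rin, so that rin-Pink replicate 3 fell within the AC-Pink range. In TF18 it had 3 reads at each age, and R(rin), 354, was the highest of the set. The difference of its changes, 2.58 ± 1.08 (SE, limma adjusted p 0.078), was above those of both genes with a called larger rise but was not called. That difference was called without AC-Pink replicate 1 (3.34, adjusted p 0.022) or rin-Pink replicate 3 (3.35, adjusted p 0.019). Solyc10g083880 was higher in rin-Pink by 2.71 ± 0.76 (SE, limma adjusted p 0.009), and without rin-Pink replicate 2 by 2.10 (adjusted p 0.051), which was not called. It was not called either when rin-Pink and AC-Pink were fitted alone (adjusted p 0.094). Solyc06g076140 was higher by 1.08 ± 0.32 (adjusted p 0.013). That call was lost without AC-Pink replicate 2 (0.61, adjusted p 0.058), without rin-Pink replicate 2 (0.95, adjusted p 0.051), with TMM-type scaling (0.46, adjusted p 0.25) and with these groups fitted alone (adjusted p 0.12). Solyc07g065420 measured 8.17, 16.35 and 32.7 RPKM in AC-Pink and 58.7, 37.3 and 52.4 in rin-Pink, without overlap, and was higher by 1.5 ± 0.46 (adjusted p 0.014). That call was lost without AC-Pink replicate 1 (1.04, adjusted p 0.072), without rin-Pink replicate 1 (1.37, adjusted p 0.052), with TMM-type scaling (0.91, adjusted p 0.12) and with quantile normalization (0.93, adjusted p 0.1).

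At 35 DAP, before the rises, no gene of the set was called between rin and AC. By limma 0 of 172 were higher and 0 lower, where 0.0581% and 0.0339% of all genes were. At an unadjusted p under 0.05 there were 8 of the 172 genes and 527 of all 20658, a larger share of the set. The median log2 fold change was -0.10 over the set and -0.06 over all genes. Without overlap between groups, 11 genes were higher in AC-Green and 7 in rin-Green, against 6.68% and 3.74% of all genes. These shares, 6.40% and 4.07% of the set, were near those of all genes.

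In TF18 the set was nearly flat by the rule that chose it. From 35 to 45 DAP, limma called 0 genes higher and 1 lower, where 0.566% and 0.145% of all genes were called. At an unadjusted p under 0.05 there were 4 of the 172 genes and 2008 of all 20658, a smaller share of the set, which the rule favours. The gene that fell was Solyc09g009590, named after its values were seen. It stood at 57.2, 70.0 and 59.2 RPKM in TF18-Green and 19.0, 18.2 and 29.8 in TF18-Pink, while it was at 35.1 to 53.0 RPKM in AC-Green and 167 to 193 in AC-Pink. Its log2 fold change in TF18 was -1.47 ± 0.20 (SE), and it was not called when TF18-Green and TF18-Pink were fitted alone. The rule capped R(TF18) on these same libraries, so this call is a description and no test is read from it. Without overlap between ages, 7 genes were higher in TF18-Pink and 4 in TF18-Green, against 12.0% and 4.31% of all genes. At 45 DAP 153 genes were lower in TF18 than in AC and 0 higher, where 6.19% and 40.3% of all genes were, a direction that the rule favours. With TMM-type scaling 167 were lower and 0 higher, where 18.1% and 23.4% of all genes were. The TF18-Pink mean was a median of 11.4% of the AC-Pink mean.

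Some of the 172 genes differed between green fruits of TF18 and AC, in shares not far from those of all genes. By limma, 8 were higher and 11 lower in TF18-Green than in AC-Green, where 2.71% and 4.38% of all genes were, and the shares of the set were 4.65% and 6.40%. The limit on R(TF18) admits genes that are already high in TF18-Green and also genes near 0 in TF18 at both ages, since 1 is added to each mean, so nothing is read from either direction. Means under 1 RPKM were found for 37 genes in TF18-Green and 35 in TF18-Pink. With TMM-type scaling 4 were higher and 11 lower, or 2.33% and 6.40% of the set, where 1.83% and 4.35% of all genes were. The counts depended on single libraries. They were 2 and 4 without AC-Green replicate 1, and likewise without TF18-Green replicate 2. There were 3 higher genes without AC-Green replicate 2, 2 higher without TF18-Green replicate 3, 4 lower without AC-Green replicate 3 and 6 lower without TF18-Green replicate 1. Same-numbered libraries of these groups deviated together (correlations of 0.284 to 0.47), and with the replicate number as a block the counts were 8 and 9.

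The 11 lower genes had log2 fold changes of -1.38 to -3.94. For all 11 the rin-Green mean lay between those of TF18-Green and AC-Green, as it did for 7 of the 8 higher genes. All 11 were also lower in TF18-Pink than in AC-Pink, as were 153 of the 172. The genes were picked for a gap between TF18-Green and AC-Green, and the rule favours a lower TF18-Pink. Nothing is therefore read from these counts. For 9 of the 11 lower genes AC-Green replicate 3 was the highest AC-Green library, as it was for 57.6% of the whole set. Solyc12g013700, described above, was the lowest at -3.94 ± 0.72 (SE, limma adjusted p 0.0038). Solyc08g005630 measured 7.94, 4.73 and 94.2 RPKM in AC-Green, 0.867, 2.72 and 9.86 in rin-Green and 0.227, 0.209 and 0.113 in TF18-Green. At 45 DAP it measured 1431, 1229 and 2286 RPKM in AC, 133, 431 and 73.3 in rin and 0.162, 0.238 and 0.418 in TF18. It was thus almost silent in TF18 at both ages, with 15 and 23 reads, and AC-Green replicate 3 stood far above the other two libraries of its group. TF18-Green was lower than AC-Green by -3.84 ± 0.86 (SE, limma adjusted p 0.012), which was not called with a pseudocount of 5 RPKM (-2.16, adjusted p 0.066) or with these groups fitted alone (adjusted p 0.06).

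The 8 higher genes had log2 fold changes of 1.09 to 2.93, and 4 of them were lower in TF18-Pink than in AC-Pink. Solyc05g013640 measured 34.6, 49.2 and 30.7 RPKM in AC-Green and 174.5, 511 and 278 in TF18-Green. At 45 DAP it measured 223, 130 and 110.5 RPKM in AC and 118, 122.5 and 198 in TF18. TF18-Green replicates 2 and 3 were above every AC-Pink library and replicate 1 was within their range, and the groups of 45 DAP overlapped. It was higher in TF18-Green by 2.93 ± 0.34 (SE, limma adjusted p 0.00016). Solyc09g008020 measured 21.8, 19.65 and 30.5 RPKM in AC-Green and 51.5, 76.7 and 236 in TF18-Green, without overlap. It was higher by 2.01 ± 0.53 (adjusted p 0.028), a call lost without AC-Green replicate 1 or 2 or TF18-Green replicate 2 or 3 (adjusted p 0.065 to 0.11) and with these groups fitted alone (adjusted p 0.064). Solyc06g076140 was higher by 1.09 ± 0.32 (adjusted p 0.044), which was lost without any AC-Green library or TF18-Green replicate 2 or 3 (adjusted p 0.081 to 0.18), with no filter (adjusted p 0.08), with TMM-type scaling (adjusted p 0.081) and with the replicate block (adjusted p 0.055).

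Some genes of the set gave almost no reads in TF18. Solyc03g095880, Solyc04g077810, Solyc06g050870 and Solyc09g064730, named after their values were seen, had 0 reads in a pooled read total of 70524742 over the 6 TF18 libraries. A count of 0 allows up to 3 reads, which is 0.278, 0.0574, 0.189 and 0.0892 RPKM for these genes in turn. These limits cover counting error only. In AC-Pink these genes had 42, 462, 820 and 1567 reads and in rin-Pink 24, 94, 161 and 39. In AC-Green they had 2, 4, 2 and 3 reads and in rin-Green 0, 4, 0 and 0, so their low counts were not particular to TF18. A further 15 genes had 1 to 10 reads over the 6 TF18 libraries.

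Within groups, single libraries were the highest or the lowest for large shares of the set. The same libraries enter the group means that chose the set, and single libraries decided the place of some genes in it, so these shares are descriptions. In rin-Pink, replicate 2 was the highest library for 101 genes (58.7%) and replicate 3 the lowest for 101, against 29.2% and 45.5% of all genes tested. In AC-Green replicate 3 was the highest for 99 genes (57.6% against 37.6%) and replicate 2 the lowest for 99 (57.6% against 32.9%). In TF18-Pink replicate 1 was the lowest for 106 genes (61.6% against 27.8%). In AC-Pink replicate 2 was the lowest for 51.2% of the set and 53.3% of all genes. The spread between replicates of single genes was wide as well. The median coefficient of variation of genes with a mean of at least 10 RPKM was 25.4% in AC-Green, 25.2% in rin-Green and 33.8% in TF18-Green for the set, against 12.5%, 14.0% and 14.8% for all genes tested. At 45 DAP it was 32.4% in AC-Pink, 34.2% in rin-Pink and 31.6% in TF18-Pink, against 23.4%, 17.9% and 14.6%. Differences in age or in the timing of ripening between the fruits of a group were not measured, and their part in this spread was not tested. Without rin-Pink replicate 2, TF18-Green replicate 3 or TF18-Pink replicate 1, 24, 29 and 20 genes left the set in turn. Genes of one library also share its depth and scaling.

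**Figure D5:**
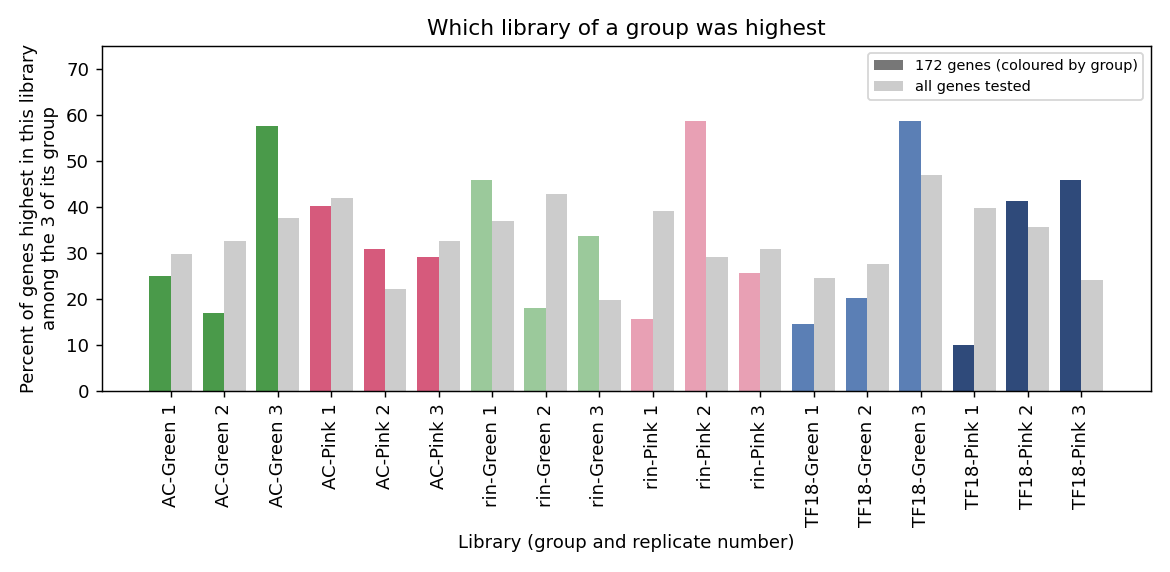
For each library, the percent of genes for which it was the highest of the 3 libraries of its group, for the 172 genes (coloured bars) and for all 20658 genes tested (grey bars). AC-Green 3, rin-Pink 2 and TF18-Green 3 were the highest for 57.6%, 58.7% and 58.7% of the set, against 37.6%, 29.2% and 46.9% of all genes.

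The genes of the set were spread over the table. By the number that follows Solyc in the identifier, they made up 0 of the 1032 identifiers numbered 0, and of the other numbers from 0.312% of identifiers (number 12) to 0.796% (number 6). Their coding lengths, solved from the RPKM steps, had a median of 739.5 bases against 951 for the 8905 genes tested with at least 10 RPKM in AC-Pink. The set held 5 pairs of genes next to each other in the table, named after their values were seen. Solyc12g013690 and Solyc12g013700 had AC-Pink means of 2649 and 3354 RPKM and R(AC) of 30.7 and 109. Solyc06g053950 and Solyc06g053960 stood at 379.5 and 317 RPKM, and Solyc01g095930 and Solyc01g095940 at 158 and 171. The pairs Solyc08g006330 with Solyc08g006340 and Solyc08g082980 with Solyc08g082990 had lower levels, of 23.5 to 62.0 RPKM. Across the 18 libraries, which share the group differences that chose the set, the correlation within pairs was 0.949 to 0.995. How reads that match more than 1 gene were counted is not given in the sources used here, so the levels of near-identical neighbours are uncertain.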

How the data were processed

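The deposited file is a table of RPKM, as the authors computed it, for 35802 identifiers in 18 libraries, with 0 columns that match no sample. CASAVA 1.8.1 and Bowtie2 are named in the submitters' processing notes. For the genome build, annotation, counting and strand, the sources used here give nothing. Identifiers matched 0 entries of the RefSeq table at hand (assembly SLM_r2.1), so no sequences are shown. Members, gene lists and tests were chosen with earlier results of these data known.

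Tests used limma 3.58.1 in R 4.3.3 on log2(RPKM + 1), which understates the change of low genes, with 6 group means in one model over 18 libraries, a variance trend and Benjamini-Hochberg adjustment of two-sided p over the 20658 genes that reach 1 RPKM in 3 or more libraries. Reads and coding lengths were solved from the steps of the RPKM values (tolerance 0.02 reads), and every value above 0 (100.0%) came out whole. Both procedures were tested on simulated data. Named genes are the 4 highest in AC-Pink and the 2 most extreme called genes each way per comparison, plus those nearest each limit. Others are marked as named after their values were seen. Replicate numbers were checked by the correlation of deviations from group means. In 1 of 15 pairs of groups, AC-Green and TF18-Green, all 3 same-numbered pairs passed 0.1 (0.284 to 0.47), which rests on the data alone, since the labels do not say what a number marks. RPKM is relative to each library's total, so total RNA per fruit is not measured. Alternatives were another pseudocount, no filter, TMM-type scaling, quantile normalization, only the groups compared, a replicate block, each library left out, and other limits of the rule. Other steps used Python 3.11.15, numpy 2.4.6, pandas 2.3.3 and matplotlib 3.10.9.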

Additional observations from a re-analysis of the deposited data

Results flagged for a closer look

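By limma's test of the difference between the rin change and the AC change, 41 genes of the set had a smaller rise in rin than in AC and 2 a larger one, where 2.97% and 23.2% of all genes tested were called. The rule used the ratios of both genotypes without setting their order, but its floor of 10 RPKM applied to AC-Pink alone. A steep rise in AC also follows from the rule and a called smaller rise in rin together. These counts therefore describe the set. The differences that stood out on the log2(RPKM + 1) scale were -6.36 for Solyc12g088220 and -6.22 for Solyc03g120570, both smaller in rin, and 1.62 for Solyc03g007870 and 1.8 for Solyc02g088130, both larger in rin. The last call was lost under several settings given above, and with TMM-type scaling neither larger rise was called. Groups of 3 libraries are too small for a test of single outlying libraries, and none was made.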

How the results depend on the processing

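Depth limits the low genes, and 3 libraries a group limit every test. Of 1416 recomputed values of named genes, 1340 kept their side of the threshold, 69 lost a call, 7 gained one and 0 called values changed sign; causes were not tested. The counts of calls that moved by over 1.5 times are these. For TF18-Green against AC-Green, higher genes numbered 4 with TMM-type scaling and 2 to 11 with 1 library left out, and lower genes 6 with a pseudocount of 5 RPKM and 4 to 11 with 1 library left out. For rin-Pink against AC-Pink, higher genes numbered 2 with TMM-type scaling and 2 to 4 with 1 library left out. A larger rise in rin was called for 1 gene with no filter, 0 with TMM-type scaling, 1 with quantile normalization and 1 to 3 with 1 library left out. In TF18, 0 to 1 gene was higher at 45 DAP with 1 library left out (1 without TF18-Green replicate 3), and 0 were lower when only the groups compared were fitted.

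The remaining counts stayed within 1.5 times of the main value. With 1 library left out they were 161 to 166 higher in AC-Pink than AC-Green, 145 to 157 higher in rin-Pink than rin-Green, 51 to 57 lower in rin-Pink than AC-Pink, 145 to 155 lower in TF18-Pink than AC-Pink and 29 to 41 with a smaller rise in rin. The replicate block, which the data pair only for AC-Green and TF18-Green, gave 8 higher and 9 lower genes there, against 8 and 11; elsewhere it gave 57 lower in rin-Pink and 39 smaller rises in rin, and it moved no count of calls by over 1.5 times.

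The set held 146 to 212 genes with 1 library left out, 237 with TMM-type scaling (163 shared) and 96 with ratios of at least 4. Without the most abundant gene of each library the sums were 5285 RPKM in AC-Green, 59999 in AC-Pink, 27950 in rin-Pink and 6586 in TF18-Green, and with TMM-type scaling 102556 in AC-Pink. TMM-type scaling was chosen after seeing the data. It gave 17 genes with R(rin) above R(AC) and 20 with a rin-Pink mean at or above that of AC-Pink. It moved the count of genes lowest in AC-Pink replicate 1 from 30 to 50, and in TF18-Pink replicate 3 from 17 to 10. The other counts of genes highest or lowest in single libraries stayed within 1.5 times.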
